A study of Mus musculus with 5 samples.

Results

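The genes described here are 10 targets of the tumour suppressor p53: Cdkn1a, Btg2, Plk2, Ccng1, Mdm2, Pmaip1, Aen, Phlda3, Sesn2 and Dcxr. They were taken as every gene probe whose platform symbol is one of these names. The names were chosen with earlier results of these data known. That gave 11 probes for 10 genes, among 34743 gene probes and 18467 named genes. Aen had 2 probes, and its brighter one was used. The other Aen probe was below background on every array.

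Back skin of mice of a hairless albino strain was profiled on 5 one-colour CodeLink arrays, 1 per group. A wild-type (WT) group received no UVB. The other 4 groups were WT and Xpa mutant skin taken either 3 h or 24 h after UVB at 1 kJ per square metre. Unirradiated mutant skin was not analysed here. The labels do not name the Xpa allele, and they do not say whether an array carried RNA of a single mouse or a pool. Every difference below therefore compares 2 arrays, with no replicate, error or test.

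p53, encoded by Trp53, is a transcription factor that is kept scarce by the ubiquitin ligase Mdm2 and accumulates when DNA is damaged. It then binds paired copies of a short DNA half-site near its target genes, some of which halt the cell cycle, some of which promote apoptosis and some of which adjust metabolism. Mdm2 is itself a target, which closes a feedback loop. In skin, UVB makes pyrimidine dimers and related photoproducts in keratinocyte DNA, p53 accumulates, and heavily damaged keratinocytes die as sunburn cells. Xpa is a protein of nucleotide excision repair, the pathway that removes these lesions, so cells without it keep them.

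The known binding pattern of p53 can be shown beside these genes. RefSeq promoter windows of build GRCm38.p6, each 300 bases long with 250 before an annotated start and 50 after it, were at hand for 9 of the 10 genes. Cdkn1a and Aen had 2 windows each, so 11 windows were searched. The p53 half-site consensus has 10 bases: purines, then C, a pair of A or T bases, G, and pyrimidines. It reads the same on both strands. An exact half-site was present in windows of 4 genes, Cdkn1a, Ccng1, Aen and Mdm2. By window the count was 5 of 11, both Aen windows holding the same site, against 8.36% of 32851 windows of all genes. A full site was taken as 2 half-sites with at most 13 bases between them, both with the central C and G and with at most 2 mismatches in all. Windows of Cdkn1a and Ccng1 met this, which is 2 of 11 windows, or 18.2%, against 4.09% of all windows. Each of the 2 windows held 2 overlapping sites of this kind. These matches are a description of letters and show no binding. DNA outside the windows was not searched, so an empty window does not mean a gene without a site.

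The sequences below are the stretches with those matches, 5′ to 3′ on the strand of the gene, with exact half-sites and the full sites without a spacer in capitals. Cdkn1a is shown upstream of the first of its annotated starts, chr17:29090729-29090978 on the plus strand, and Ccng1 at chr11:40755287-40755536 on the minus strand. The 250 bases shown of each end just before the annotated start. The full site of Cdkn1a without a spacer begins 51 bases before the start and has 1 mismatch. An exact half-site lies upstream of it, and together with the half-site at the start of that site it makes a second full site, with 0 mismatches and a spacer of 12 bases, that begins 73 bases before the start. The window of the other annotated start of Cdkn1a, chr17:29093519-29093818, held 0 exact half-sites and 0 full sites. The full site of Ccng1 begins 195 bases before the start and also has 1 mismatch. Its second site overlaps that one and has 2 mismatches and a spacer of 5 bases. Mdm2 is shown at chr10:117710905-117710974 on the minus strand and Aen at chr7:78895927-78895956 on the plus strand, each with the single half-site found by this search.
Cdkn1a: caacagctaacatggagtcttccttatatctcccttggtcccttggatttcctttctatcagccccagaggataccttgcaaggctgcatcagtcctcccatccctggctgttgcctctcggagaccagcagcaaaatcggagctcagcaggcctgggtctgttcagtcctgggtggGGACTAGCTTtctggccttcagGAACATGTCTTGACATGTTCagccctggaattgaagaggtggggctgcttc
Ccng1: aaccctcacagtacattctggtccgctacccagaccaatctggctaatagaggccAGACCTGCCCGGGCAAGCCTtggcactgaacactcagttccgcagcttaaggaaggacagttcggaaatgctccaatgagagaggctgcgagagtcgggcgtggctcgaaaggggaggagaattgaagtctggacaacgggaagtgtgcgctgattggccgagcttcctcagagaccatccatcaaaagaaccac
Mdm2: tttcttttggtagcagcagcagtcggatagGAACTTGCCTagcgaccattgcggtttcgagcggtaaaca
Aen: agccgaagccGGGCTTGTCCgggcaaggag

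Levels are given as log2 of background-corrected, quantile normalized intensity, and a probe counted as above background where the scanner software gave no low-signal flag. The number of the 10 genes above background was 5 without UVB, 6 and 9 in WT at 3 h and 24 h, and 7 and 8 in the mutant at 3 h and 24 h. Of the 10 genes, 5 were above background on all 5 arrays and 1, Mdm2, on none. Over all genes, 43.8% were above background on at least 1 array. The targeted gene, Xpa, had a log2 level of 7.49, 7.13 and 7.55 in WT without UVB, at 3 h and at 24 h. In mutant skin it was 6.64 at 3 h and 6.42 at 24 h, below background both times. It was below background in WT at 3 h as well.

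**Figure D1:**
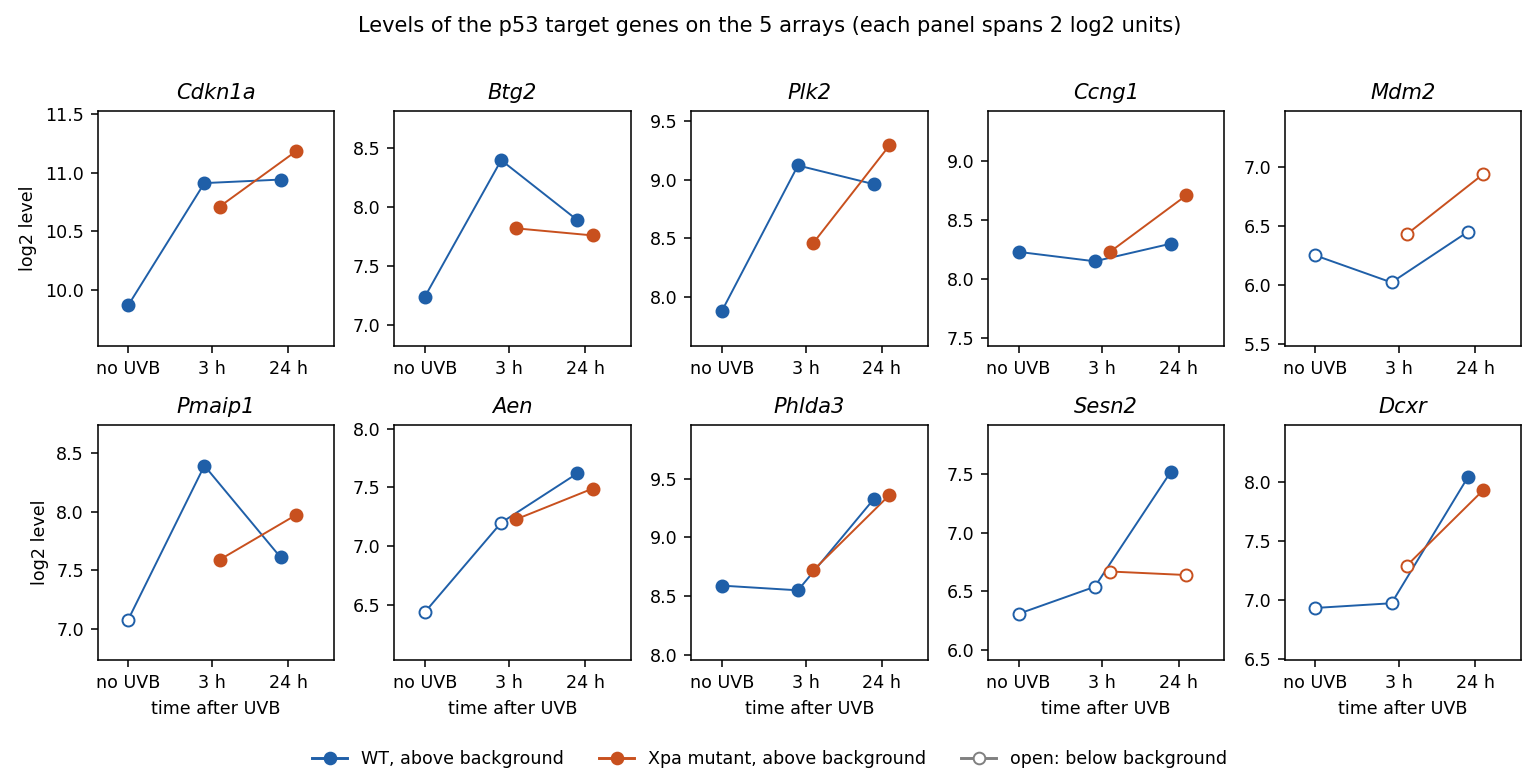
Log2 level of each gene (y axis, each panel spanning 2 log2 units) by time after UVB (x axis) in WT (blue) and Xpa mutant (orange) skin, 1 array per point, open points below background. Cdkn1a, Btg2, Plk2 and Pmaip1 are high by 3 h in WT, while Phlda3 and Dcxr are higher at 24 h in both genotypes and Sesn2 at 24 h in WT.

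Without replicates, 2 measures give a scale for these differences. Spiked control probes with repeated spots had a median SD of 0.13 between spots of an array, which covers spotting and reading only. The differences of all compared genes had a robust SD between 0.28 and 0.41 in the 6 comparisons. Genes below background on both arrays were not compared, and the others were called higher or lower at 2-fold, a log2 difference of 1. Where 1 of the arrays was below background the fold is a bound, set against the higher of the dim value and the lowest level above background on that array.

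In WT skin 3 h after UVB, the cell cycle genes Cdkn1a, Btg2 and Plk2 and the apoptosis gene Pmaip1 exceeded unirradiated skin by 2-fold or more, and Ccng1 and Phlda3 were at the unirradiated level. The other 4 genes, Mdm2, Aen, Sesn2 and Dcxr, were below background on both arrays. Thus 4 of the 10 genes were called higher and 0 lower, where 2.27% of all 7148 compared genes were called higher and 1.26% lower. Among genes above background on both arrays, which leaves out Pmaip1, 3 of 5 of these targets were called higher, against 0.907% of 5512 genes. Since the 10 genes were chosen with earlier results of these data known, these counts are a description and no test.

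Cdkn1a encodes p21, the inhibitor of cyclin-dependent kinases that carries out most of the p53 arrest of the cell cycle. Its log2 level was 9.87 in unirradiated WT skin, 10.91 in WT at 3 h, 10.94 in WT at 24 h, 10.71 in the mutant at 3 h and 11.18 in the mutant at 24 h. All 4 irradiated arrays lay above the unirradiated array, and those of WT differed from each other by 0.02. In WT it was 2.07-fold higher at 3 h and 2.10-fold at 24 h than without UVB.

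Btg2 encodes an antiproliferative protein that recruits a deadenylase complex to messenger RNAs. The log2 level of Btg2 was 7.24 in unirradiated WT skin, 8.40 in WT at 3 h, 7.89 in WT at 24 h, 7.82 in the mutant at 3 h and 7.76 in the mutant at 24 h. The WT array at 3 h was the highest and the unirradiated array the lowest. The fold over unirradiated skin was 2.24 at 3 h and 1.57 at 24 h in WT.

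Plk2, a polo-like kinase induced by stress and growth signals, had a log2 level of 7.88 in unirradiated WT skin, 9.12 in WT at 3 h, 8.96 in WT at 24 h, 8.46 in the mutant at 3 h and 9.29 in the mutant at 24 h. Its WT levels were high at both times, 2.36-fold and 2.11-fold above unirradiated skin. The mutant array at 3 h lay between the unirradiated array and the other 3.

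Ccng1 encodes cyclin G1, which brings a phosphatase to Mdm2. Ccng1 had a log2 level of 8.23 in unirradiated WT skin, 8.15 in WT at 3 h, 8.30 in WT at 24 h, 8.23 in the mutant at 3 h and 8.71 in the mutant at 24 h. All but the last lay within 0.15 of each other. Ccng1 was not called in any of the 6 comparisons, although its promoter window held a full site with 1 mismatch.

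Mdm2, the ubiquitin ligase that holds p53 in check, had log2 levels of 6.25, 6.02 and 6.45 in WT without UVB, at 3 h and at 24 h. In the mutant they were 6.43 and 6.94. All 5 values carried the low-signal flag, so no fold is given and no order is read from them.

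Pmaip1 encodes Noxa, which binds and neutralises survival proteins of the Bcl2 family. On the log2 scale Pmaip1 had a level of 7.08 in unirradiated WT skin, where it was below background, 8.39 in WT at 3 h, 7.61 in WT at 24 h, 7.59 in the mutant at 3 h and 7.97 in the mutant at 24 h. The WT array at 3 h stood above all others. The fold over unirradiated skin was at least 2.48 at 3 h and at least 1.45 at 24 h in WT.

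Aen, an exonuclease that takes part in p53-dependent apoptosis, had a log2 level of 6.44 in unirradiated WT skin, 7.20 in WT at 3 h, 7.62 in WT at 24 h, 7.23 in the mutant at 3 h and 7.49 in the mutant at 24 h. Both WT arrays of the earlier times were below background, and the WT array at 24 h was the highest. Its fold at 24 h in WT was at least 1.53 over unirradiated skin.

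Phlda3 encodes a small lipid-binding protein that competes with the survival kinase Akt for the membrane. Its log2 level was 8.59 in unirradiated WT skin, 8.55 in WT at 3 h, 9.33 in WT at 24 h, 8.72 in the mutant at 3 h and 9.36 in the mutant at 24 h. Both arrays at 24 h stood above the other 3, which spanned 8.55 to 8.72. In WT at 24 h it was 1.67-fold above unirradiated skin and 1.72-fold above the array at 3 h, short of 2-fold in both cases.

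Sesn2, a stress protein that restrains the growth kinase mTORC1, had a log2 level of 6.31 in unirradiated WT skin, 6.54 in WT at 3 h, 7.52 in WT at 24 h, 6.67 in the mutant at 3 h and 6.64 in the mutant at 24 h. The WT array at 24 h was the single one above background, so its call rests on 1 spot. The fold there was at least 1.43 over unirradiated skin.

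Dcxr encodes a reductase of dicarbonyl compounds and xylulose. Its log2 level was 6.93 in unirradiated WT skin, 6.97 in WT at 3 h, 8.04 in WT at 24 h, 7.29 in the mutant at 3 h and 7.93 in the mutant at 24 h. Both arrays at 24 h were above background and the other 3 were below it. The fold over unirradiated skin was at least 2.05 in WT at 24 h.

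At 24 h in WT skin, 5 of the 10 genes were called higher than without UVB and 0 lower, where 2.45% of 7268 compared genes were called higher and 2.22% lower. Cdkn1a and Plk2 were called at both times, and Aen, Sesn2 and Dcxr at 24 h. These last 3 were compared only because the irradiated array was above background, so their call had little room to fail. Their call takes the dim value as measured, and by the bounds only Dcxr among them, at 2.05, reached 2-fold. Among genes above background on both arrays 2 of 5 targets were called, against 1.15% of 5573 genes. Btg2 (0.65), Phlda3 (0.74) and Pmaip1 (0.54) had positive log2 differences below 1, and Ccng1 had 0.07. The comparisons of the 2 times share the unirradiated array. As at 3 h, counts of genes chosen with earlier results known are no test against all genes.

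**Figure D2:**
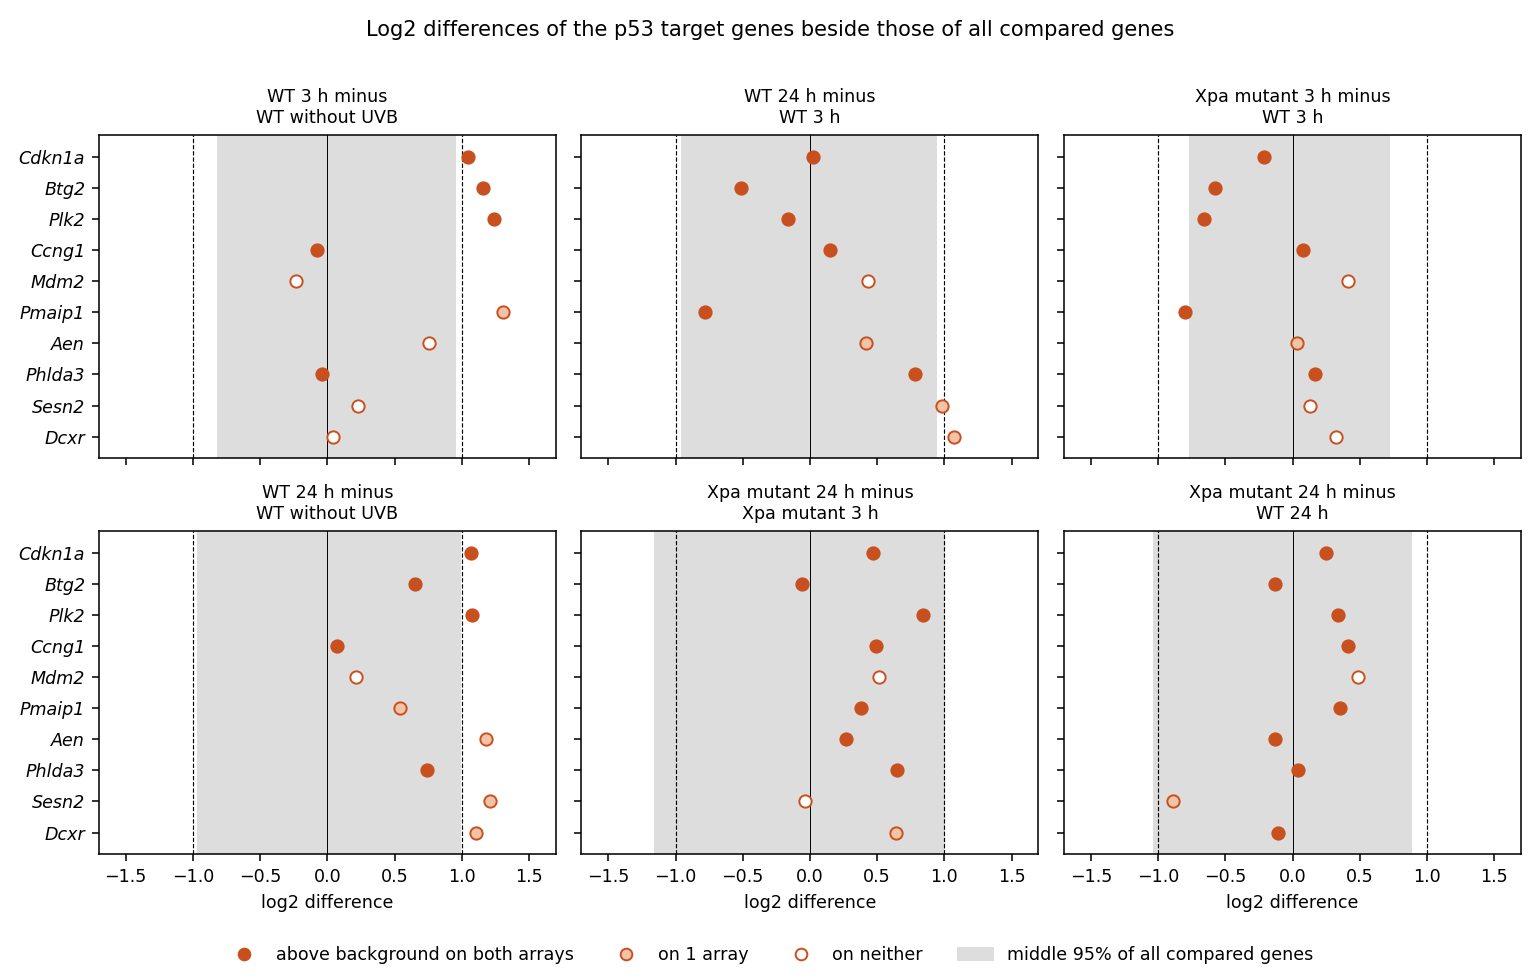
Log2 difference (x axis) of each gene (rows) in 6 comparisons, filled where both arrays were above background, pale where 1 was and open where neither was, with the middle 95% of all compared genes in grey and 2-fold as dashed lines. In WT at 3 h, Cdkn1a, Btg2, Plk2 and Pmaip1 lie beyond the grey band, which ends at 0.95.

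Set directly against each other, the WT arrays at 24 h and 3 h showed Btg2 and Pmaip1 lower at the later time and Phlda3, Sesn2 and Dcxr higher. The log2 difference was -0.51 for Btg2 and -0.78 for Pmaip1. It was 0.78 for Phlda3, 0.98 for Sesn2 and 1.07 for Dcxr. Only Dcxr was called, where 2.09% of 7120 genes were called higher and 2.22% lower. Dcxr and Sesn2 were below background at 3 h, and their bounds were 1.97-fold and 1.37-fold, both under 2-fold. Cdkn1a (0.02), Plk2 (-0.16) and Ccng1 (0.15) differed by about the spread between repeated spots or less. With arrays scaled on spiked controls, a choice made after seeing the data, these 3 were at 0.24, 0.15 and 0.46. Phlda3 (1.08), Sesn2 (1.26) and Dcxr (1.38) then passed 1, where 5.83% of all compared genes were called higher. The median of all compared genes went from 0.03 to 0.32.

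A scanner flag bears on the early calls and on some others. The probes of Cdkn1a, Btg2 and Pmaip1 carried the flag C in WT at 3 h, and that of Plk2 in unirradiated skin. Cdkn1a also carried it in the mutant at 3 h, Phlda3 and Sesn2 in unirradiated skin and Mdm2 in WT at 24 h. The calls of Plk2 and Sesn2 at 24 h thus also use a flagged spot. Between 14.9% and 16.2% of gene probes per array carried it, and neither labels nor headers explain it. In WT at 3 h the local background of the Cdkn1a, Btg2 and Pmaip1 spots was 82, 89 and 78 intensity units, below the array median of 92. With genes that carry the flag on a compared array left out, a choice made after seeing the data, 0 of the 10 genes remained called at 3 h, since all 4 were removed, and 3 at 24 h.

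In the Xpa mutant 3 h after UVB, Btg2, Plk2 and Pmaip1 were lower than in WT at the same time, by less than 2-fold. The log2 difference was -0.58 for Btg2, -0.66 for Plk2 and -0.80 for Pmaip1, which are folds of 1.49, 1.58 and 1.75. Pmaip1 passed 2-fold with plain background subtraction (-1.01), in the authors' deposited table (-1.02) and with spiked scaling (-1.03). The WT spots of Btg2 and Pmaip1 here are those with the flag C, while that of Plk2 carried none at 3 h. Cdkn1a was 1.15-fold lower, with the flag C on both arrays. Ccng1 (0.08), Phlda3 (0.17) and Aen (0.03) had differences near 0. None of the 10 genes was called in either direction, where 1.12% of 6863 genes were called higher and 0.991% lower. Of all compared genes, 94.8%, 96.4% and 98.0% had a higher difference than Btg2, Plk2 and Pmaip1, the lowest of the members compared. The middle 95% of all compared genes ran from -0.76 to 0.72. Btg2 and Plk2 lay inside it and Pmaip1 just below it. The WT array at 3 h enters this comparison and that with unirradiated skin with opposite sign, so the 2 sets of values are not independent. Without unirradiated mutant skin, a response to UVB and a level set before it cannot be told apart.

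Against unirradiated WT skin, the mutant array at 3 h had Cdkn1a 1.79-fold, Btg2 1.50-fold, Plk2 1.49-fold and Pmaip1 at least 1.42-fold higher. At 24 h it had Plk2 2.67-fold, Cdkn1a 2.49-fold and Phlda3 1.72-fold higher, with Pmaip1 at least 1.86-fold, Dcxr at least 1.89-fold and Aen at least 1.40-fold. Of the 10 genes, 0 were called at 3 h, where 1.76% of 7110 genes were higher and 1.32% lower. At 24 h 3 were called higher, where 3.28% of 7296 genes were higher and 3.88% lower. The 3 were Cdkn1a, Plk2 and Aen. Aen was compared only because the mutant array was above background, and its bound is short of 2-fold. These values hold genotype and UVB together.

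At 24 h the log2 differences between mutant and WT were below 1 in size for all compared members. Cdkn1a (0.25), Plk2 (0.34), Pmaip1 (0.35) and Ccng1 (0.41) were higher on the mutant array, but with arrays scaled on spiked controls, an alternative chosen after seeing the data, all 4 were lower, at -0.45, -0.35, -0.24 and -0.23. That scaling moved the median of all compared genes from 0.00 to -0.62, and the 4 genes lay above it. Btg2 (-0.13), Aen (-0.13) and Dcxr (-0.11) were slightly lower, and Phlda3 (0.04) was level. With spiked scaling Btg2, Aen and Dcxr were at -0.72 and Phlda3 at -0.65. Sesn2 was below background on the mutant array and at least 1.39-fold lower there. Taken as measured its difference was -0.89, and -1.48 with spiked scaling. None of the 10 genes was called, where 1.60% of 7104 genes were called higher and 2.66% lower.

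The change from 3 h to 24 h was also set side by side in mutant and WT skin. In the mutant, Plk2 was 1.79-fold, Phlda3 1.56-fold, Ccng1 1.40-fold, Cdkn1a 1.39-fold and Pmaip1 1.30-fold higher at 24 h than at 3 h, and Dcxr at least 1.56-fold. None of the 10 was called, where 2.44% of 7090 genes were called higher and 3.77% lower. Among the 6 genes above background on all 4 irradiated arrays, the change in the mutant minus that in WT was 1.16 for Pmaip1, 1.00 for Plk2, 0.45 for Cdkn1a, 0.45 for Btg2, 0.34 for Ccng1 and -0.14 for Phlda3, on the log2 scale. Of these only Pmaip1 reached 1, where 1.78% of 4782 genes did, and Plk2 fell just short of it. With arrays scaled on spiked controls these values were 0.79 for Pmaip1, 0.55 for Plk2, -0.07 for Cdkn1a, 0.07 for Btg2, -0.09 for Ccng1 and -0.60 for Phlda3.

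**Figure D3:**
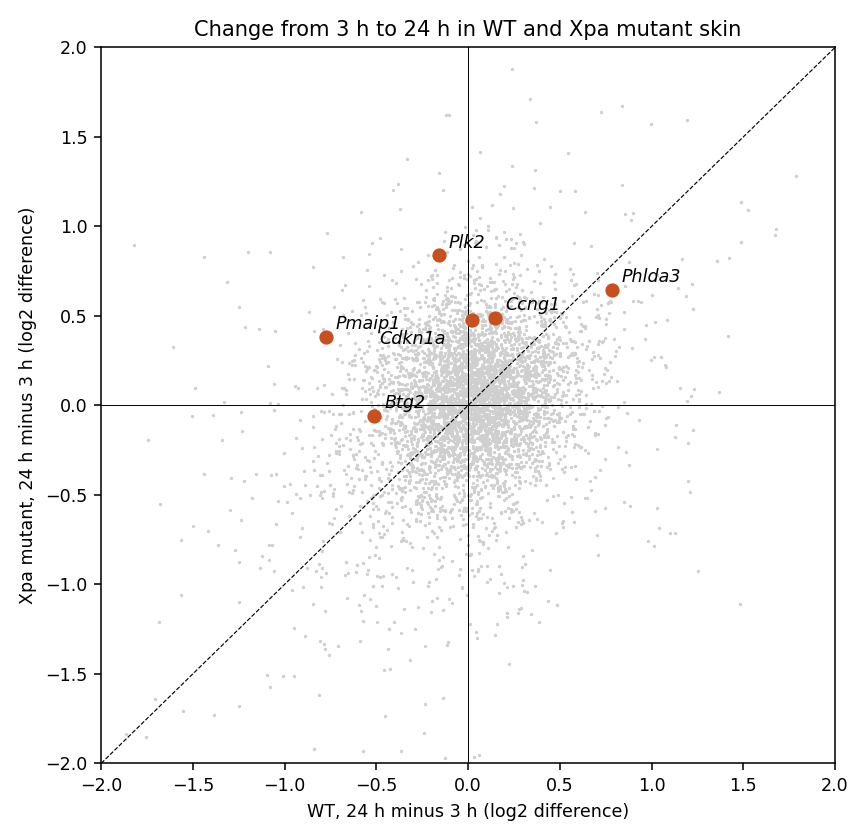
Log2 difference between 24 h and 3 h in WT (x axis) and in the Xpa mutant (y axis) for the 4782 genes above background on all 4 irradiated arrays (grey, 24 of them outside the axes) and the 6 p53 targets among them (orange), with equal changes on the dashed line. Pmaip1 lies to the upper left, at -0.78 in WT and 0.38 in the mutant, Plk2 lies above the line at -0.16 in WT, or 0.15 with spiked scaling, and Phlda3 lies near the line.

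A list of other p53 targets was drawn up, like those below, with earlier results of these data known, as were the 10 genes, so the 2 are not set against each other. Of 52 further targets on the array, 31 were compared in WT at 3 h, of which 2 were called higher and 1 lower, where 2.27% of all compared genes were higher and 1.26% lower. Their median log2 difference was 0.11, against -0.03 over all compared genes. At 24 h in WT 2 of 31 were called higher and 0 lower, with a median of 0.04 against 0.00, where 2.45% of all compared genes were higher and 2.22% lower. The genes called higher at both times were Sfn, encoding the cell cycle inhibitor 14-3-3 sigma, and Hbegf, a ligand of the EGF receptor. Sfn had a log2 level of 11.43 without UVB and 12.57, 12.73, 12.34 and 11.88 in WT at 3 h and 24 h and the mutant at 3 h and 24 h. Hbegf was below background without UVB, at 6.83, and had 8.63, 8.21, 8.42 and 8.43 on the same arrays. Sesn1, a relative of Sesn2, was the gene called lower at 3 h, by 2.17-fold.

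Between mutant and WT, 0 of 29 further targets were called at 3 h (median 0.04 against 0.01). Of all compared genes 1.12% were higher and 0.991% lower there. At 24 h 1 of 34 was called, Trp53i11, at least 1.36-fold lower (median 0.11 against 0.00). Trp53i11 was compared only because the WT array was above background, and its bound is short of 2-fold. At that time 1.60% of all compared genes were higher and 2.66% lower. With spiked scaling 4 were called lower at 24 h, with a median of -0.50. That scaling had 15.2% of all compared genes lower, with a median of -0.62. From 3 h to 24 h, Psrc1, a spindle protein gene, was called higher in WT (at least 2.03-fold) and in the mutant (at least 1.94-fold). The phosphatase gene Dusp1 (2.67-fold) and Trp53inp2 (2.01-fold) were called lower in WT over that time. Dram1, a gene of autophagy, was called higher in the mutant (at least 1.31-fold). Psrc1 and Dram1 were compared only because the array at 24 h was above background. Of their bounds only that of Psrc1 in WT reached 2-fold. In WT 32 of the list were compared between 3 h and 24 h, and in the mutant 33. Of all compared genes 2.09% were higher and 2.22% lower in WT, and 2.44% and 3.77% in the mutant. The medians of this list were 0.06 in WT and -0.01 in the mutant, against 0.03 and 0.03 over all compared genes.

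Trp53, the p53 gene itself, named here outside the rule for named genes, spanned 0.13 log2 units over the 5 arrays, between 8.44 and 8.57. Of 27 regulators on the array, such as damage kinases, Mdm2 partners and p53 relatives, 0 of 10 were called in WT at 3 h and 1 of 13 at 24 h, where 2.27% and 2.45% of all compared genes were higher. That gene was the checkpoint kinase Chek2, at least 1.21-fold higher and above background on the WT array at 24 h only. Between mutant and WT 0 of 11 were called at 3 h and 0 of 13 at 24 h, with medians of -0.10 and 0.05, where 0.991% and 2.66% of all compared genes were lower. With spiked scaling 1 and 3 were called lower, with medians of -0.32 and -0.55. Of all compared genes 2.03% and 15.2% were then lower, with medians of -0.20 and -0.62. Trp63, a p53 relative of basal keratinocytes, was 1.76-fold lower in the mutant at 3 h, a difference of -0.82 against an all-gene 2.5% limit of -0.76. The kinase gene Hipk2 was at least 1.7-fold lower in the mutant at 24 h. These 2 were named after their values were seen. Rad17, a checkpoint clamp loader gene, was called higher in the mutant between 3 h and 24 h, by at least 1.22-fold. It was 1 of 11 compared, where 2.44% of all compared genes were higher. Rad17 was compared only because the mutant array at 24 h was above background, and its bound is short of 2-fold.

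p21 is known to hold down a set of cell cycle genes through the repressor complex DREAM, and 30 of them were on the array. In WT at 3 h, 0 of 11 compared were called, where 2.27% of all compared genes were higher and 1.26% lower. The median was -0.28 against -0.03 over all compared genes, and 2 of the 11 lay above 0. At 24 h in WT 0 of 15 were called, where 2.45% of all compared genes were higher and 2.22% lower. The median was 0.35 against 0.00, and 14 of the 15 lay above 0. Ccnb1, Cdc20, Cenpf and E2f1 were compared only because the irradiated array was above background, so their sign had little room to be negative. From 3 h to 24 h in WT 2 of 15 were called higher, where 2.09% of all compared genes were higher. They were Cdk1, the kinase that drives mitosis, 2.27-fold, and Birc5, encoding survivin, 2.04-fold. All 15 lay above 0, with a median of 0.62 against 0.03 over all compared genes. Ccnb1, Cdc20, Cenpf, E2f1 and Mcm3 were compared only because the array at 24 h was above background, so their sign too had little room to be negative. The mutant had 0 of 14 called over that time (median 0.56 against 0.03), where 2.44% of all compared genes were higher and 3.77% lower. Its Ccnb1, Ccna2, Cdc20, Top2a, Cenpa and Mcm5 were likewise compared only because the array at 24 h was above background. Against WT the mutant had a median of -0.05 over 12 genes at 3 h and of -0.36 over 15 at 24 h. None was called at either time, where 0.991% and 2.66% of all compared genes were lower. With spiked scaling the median against WT at 24 h was -0.99, against -0.62 over all compared genes. By that scaling 5 of the 15 were called lower, as were 15.2% of all compared genes. That scaling also gave 7 called higher between 3 h and 24 h in WT, with a median of 0.92. Of all compared genes 5.83% were then higher, with a median of 0.32.

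**Figure D4:**
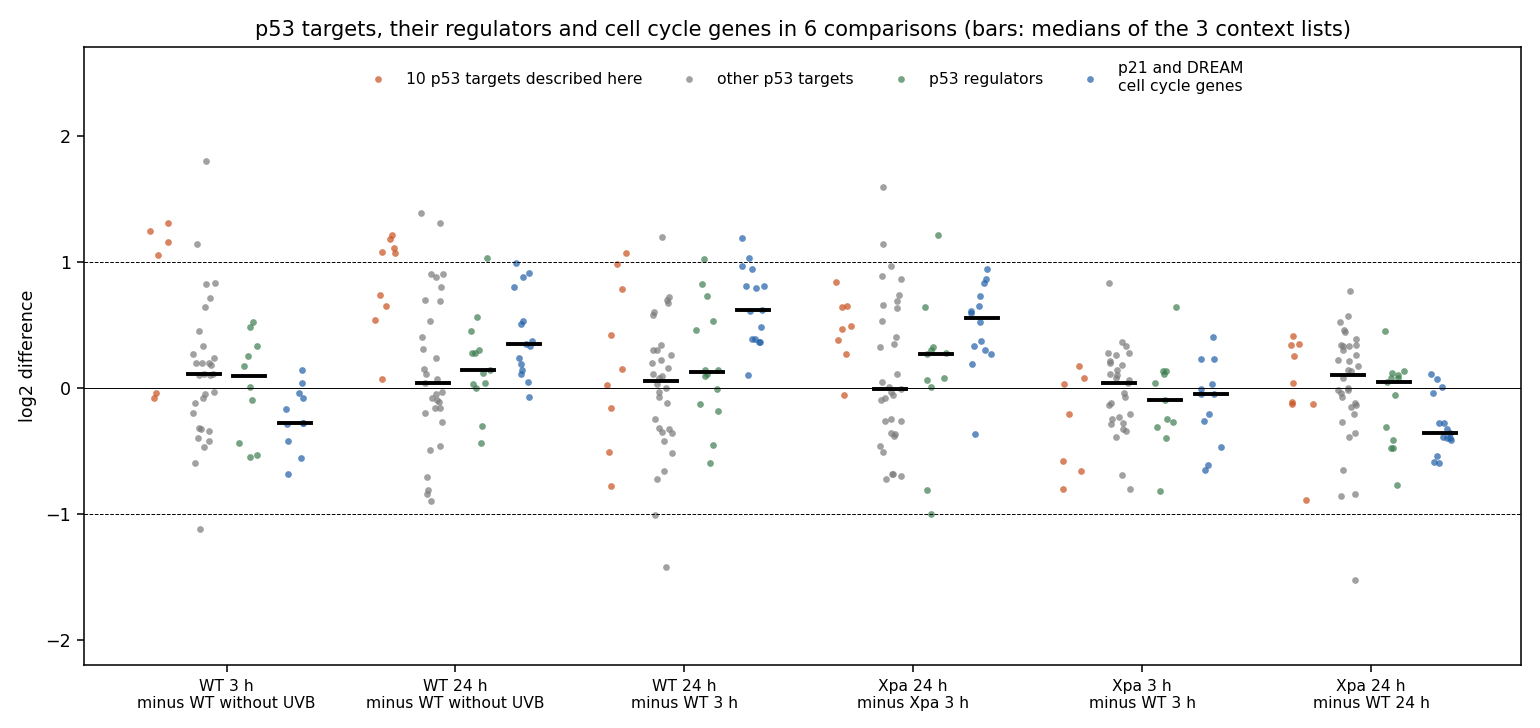
Log2 differences (y axis) of the compared p53 targets described here (orange), other p53 targets (grey), p53 regulators (green) and cell cycle genes held down through p21 and DREAM (blue) in 6 comparisons, 1 point per gene, bars at the medians of the context lists, dashed lines at 2-fold. The cell cycle genes have a median of -0.28 in WT at 3 h and of 0.35 at 24 h, against WT without UVB.

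The gene whose pattern was most like that of Cdkn1a was Sat1, a polyamine-degrading enzyme. Likeness was the Euclidean distance between log2 levels centred per gene over the 5 arrays, among 4643 other genes above background on all of them. The distance was 0.14 for Sat1, then 0.30 for the actin-severing protein gene Cfl1, 0.31 for Csrp3, 0.32 for the nucleolar chaperone gene Npm3 and 0.34 for Plk2, another of the 10 targets. Sat1 had log2 levels of 8.08 without UVB, 9.13 and 9.04 in WT at 3 h and 24 h, and 8.91 and 9.49 in the mutant. With 5 points per gene and so many genes, close patterns are easily found. The other targets above background throughout were farther away, Btg2 at 0.72, Phlda3 at 0.81 and Ccng1 at 0.88, at ranks 256, 572 and 909.

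Markers of the cell types in skin also differed between arrays, and in whole skin fewer cells of a type cannot be told apart from less RNA per cell. Keratinocyte markers were present on every array, with 4 or 5 of 5 basal and 5 or 6 of 6 differentiated markers above background. The summed linear level of the differentiated markers was 36467 without UVB, 28337 and 16058 in WT at 3 h and 24 h, and 31545 and 12357 in the mutant. That of the basal markers was 20428, 14834, 20532, 16415 and 12925 in the same order. The skeletal muscle sum lay between 25875 and 49615, the fibroblast sum between 10456 and 25155 and the adipocyte sum between 7838 and 12459. Hair follicle markers summed to 561 without UVB and 5336 in the mutant at 3 h, and macrophage markers to 1301 without UVB and 3032 in the mutant at 24 h. The 7 neutrophil markers summed to 530 without UVB, 778 and 1758 in WT at 3 h and 24 h, and 736 and 3626 in the mutant. At 24 h 2 of them were above background, while Cxcr2, Mpo, Elane, Ngp and Camp were below it on every array, and of 4 T cell markers Cd3e, Cd3d and Cd2 were. Of 4 endothelial markers, Cdh5 and Tek were below background throughout. The part of these differences in the levels of the p53 targets was not tested.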

How the data were processed

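The deposited scanner tables hold linear intensity quantified with CodeLink Expression Analysis 5.0.0.31312, per the file headers: spot mean, local background median, their difference and a flag. The authors' deposited normalized table holds background-subtracted intensity with equal column medians (46.26). How it was made is not stated in labels or headers, and it served as an alternative. Background correction used normexp (saddle-point, offset 50) from limma 3.58.1, run in R 4.3.3. Of 34967 gene probes, 126 masked on any array and 98 irregular or P-flagged were left out. The rest were quantile normalized and taken to log2, and a gene was read from its brightest probe (analysis in Python 3.11.15). Names came from the platform annotation (21471 probes with 1 symbol, 678 with several, not used) and, for 533 probes, a RefSeq accession in GRCm38.p6. Between 23.5% and 25.1% of gene probes were above background. The number of arrays limits the precision. The members and lists were chosen with earlier results of these data known. Named genes were the 10 members, up to 6 list genes past 2-fold per comparison and the 5 genes most like Cdkn1a. Trp53, Bax, Trp63 and Hipk2 were named after their values were seen. The comparison step was tested on simulated data.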

Additional observations from a re-analysis of the deposited data

Results flagged for a closer look

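Between 3 h and 24 h the log2 changes of Plk2 and Pmaip1 had opposite signs in the 2 genotypes. Plk2 had a log2 change of -0.16 in WT and 0.84 in the mutant, a difference of 1.00. Pmaip1 had -0.78 in WT and 0.38 in the mutant, a difference of 1.16. The difference was not tested, since each value rests on 1 array, and the change of Plk2 in WT was smaller than 0.18, the spread expected between 2 single spots. With spiked scaling it was 0.15 in WT and 0.69 in the mutant, the same sign in both.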

How the results depend on the processing

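No paired analysis was possible because each group has 1 array. Under 10 alternatives, 8 of them planned, no called difference of these genes changed sign. The alternatives that only change which genes are kept, by background or by the flag C, leave the values as they are and could not change a sign. Some differences that were not called did change sign with spiked scaling, such as those of Cdkn1a, Plk2, Pmaip1 and Ccng1 between mutant and WT at 24 h. Scaling on spiked controls and leaving out genes with the flag C were chosen after seeing the data. In WT at 3 h against no UVB, 4 genes were called higher, but 1 without background correction and 0 without the flag C. The share of all compared genes was 2.27%, and 0.811% and 2.2% under these alternatives. In WT at 24 h against no UVB, 5 were called, but 0 without background correction. The count was 2 among genes above background on all arrays and 3 without the flag C. The share of all compared genes was 2.45%, and 0.894%, 1.31% and 2.56% under these alternatives. From 3 h to 24 h in WT, 1 was called higher, but 0 without background correction or among genes above background on all arrays. The count was 2 with plain subtraction, the authors' deposited table or the smaller offset, and 3 with spiked scaling. The share of all compared genes was 2.09%, with 0.491% without background correction and 0.991% above background on all arrays. It rose to 5.83% with plain subtraction, 5.92% with the authors' table, 4.23% with the smaller offset and 5.83% with spiked scaling. In the mutant against WT at 3 h, 0 were called lower, but 1 with plain subtraction, the authors' deposited table or spiked scaling. At 24 h 0 were called lower, but 1 with these or the smaller offset. At 3 h 0.991% of all compared genes were lower, and 3.25%, 3.25% and 2.03% under these alternatives. At 24 h it was 2.66%, with 5.55% by plain subtraction, 5.68% by the authors' table, 15.2% by spiked scaling and 4.43% by the smaller offset. The difference of changes had 1 gene at 1 or more, but 0 without background correction, among genes above background on all arrays, with spiked scaling or without the flag C, and 2 with plain subtraction, the authors' deposited table or the smaller offset. It had 0 at -1 or less, but 1 with no filter on dim probes. Its share over all genes was counted in the main setting only, with 1.78% at 1 or more and 2.49% at -1 or less. Leaving genes out by background or flag lowers counts by construction; for the others the cause was not tested. Single differences moved beyond 0.18 in 38 of 54 values with spiked scaling and in 18 of 54 with the authors' deposited table.

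Over all genes, those called higher in WT at 3 h numbered 162, against 58 without background correction, 49 above background on all arrays, 251 with the smaller offset, 332 with plain subtraction and 331 with the authors' deposited table. Spiked scaling took the share of calls that were higher from 64.3% to 52.5% in WT at 3 h, from 52.5% to 78.3% at 24 h and from 48.5% to 85.4% between these times. In the mutant it took it from 39.3% to 24.7% over time and from 53.1% to 25.3% against WT at 3 h. Against WT at 24 h it took it from 37.6% to 1.37%, with 1082 genes called lower in place of 189. No group has a replicate array, and most of these genes lie near background on some array.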

Other observations

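Bax, which encodes a pore-forming protein of apoptosis and was named after its values were seen, was above background on all 5 arrays. Its log2 level was 7.43 in unirradiated WT skin, 7.61 in WT at 3 h, 8.31 in WT at 24 h, 7.87 in the mutant at 3 h and 8.61 in the mutant at 24 h. Both arrays at 24 h stood above the other 3, as they did for Phlda3 and Dcxr.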
